A study of Chlorocebus sabaeus with 45 samples.

Results

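The interleukin-1 and interleukin-18 family transcripts described here are 8 genes of vervet monkey blood, chosen by symbol: IL1B, IL1RN, IL1R1, IL1R2, IL1RAP, IL18, IL18R1 and IL18RAP. They are 8 of the 33994 gene rows in each deposited table, every one was found, and all 8 were among the 18753 genes tested. Whole-blood RNA was sequenced from 15 wild-born juvenile male vervets (Chlorocebus sabaeus), each sampled on day 0 (Tp1), day 3 (Tp2) and day 14 (Tp4) of a relocation and quarantine used as a psychosocial stressor, which gave 45 libraries. Day 0 blood was taken in the field directly after trapping under ketamine and xylazine, whereas on days 3 and 14 the same animals were in individual housing at the primate facility and were sedated with dexmedetomidine and midazolam. Day 0 therefore differed from the later days in time, place and sedative together, and these cannot be told apart. The samples hold no group of animals that stayed in the field.

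IL-1beta, the product of IL1B, and IL-18 are made as inactive precursors that an inflammasome-activated caspase cuts before release. IL-1beta binds the receptor IL1R1, which signals once the accessory chain IL1RAP joins it, while the decoy receptor IL1R2 binds the cytokine without signalling and the antagonist encoded by IL1RN occupies IL1R1 without activating it. IL-18 binds IL18R1 and signals through the accessory chain IL18RAP, and it is known for inducing interferon-gamma in natural killer (NK) and T cells. In blood, neutrophils and monocytes are known sources of IL1B and IL1RN, and neutrophils carry much of the decoy receptor.

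Levels are FPKM as deposited, that is, fragments scaled to the length of the gene and to the library total, so they can be compared between genes as far as those lengths hold. Library totals ran from 13216275 to 31469332 fragments, with a median of 22785702. In 5 libraries 26032 to 31402 genes were above 0, against 20008 to 24963 in the other 40. These 5 are the day 0 samples of animals 9, 11 and 12, the day 3 sample of animal 8 and the day 14 sample of animal 4, and values without them are given for the calls that change, the counts and the main ratios. Fold changes come from a limma fit of log2(FPKM + 0.1) after TMM scaling (trimmed mean of M values, which sets the samples to a common level over most genes), with p-values adjusted by the Benjamini-Hochberg method over all 18753 genes and 0.05 as the threshold. The scaling matters for day 14, where the median of all genes was -0.36 on the log2 scale against day 0 without it and -0.02 with it, so on day 14 falls are smaller and rises larger than the unscaled FPKM alone would give.

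Most transcripts of the family were lower after relocation, with IL18 and IL18R1 short of the threshold on both days (IL18R1 passed on day 14 with the animal as a block). Of the 8 genes, 5 fell by day 3 (IL1B, IL1RN, IL1R1, IL1RAP and IL18RAP) and 6 by day 14 (the same 5 and IL1R2), and none rose. Among all genes tested 12.2% were called on day 3, 6.19% as lower, and 36% on day 14, 17.3% as lower. The counts were 3 and 3 with the RNA integrity number of each sample as a covariate, beside 7.66% and 19.9% of all genes. On day 3 the count was 3 without any one of animals 2, 4, 7, 8, 11 or 13, beside 7.31% to 11.4% of all genes. The median log2 change of the 8 genes was -0.95 on day 3 and -1.02 on day 14, beside 0.01 and -0.02 over all genes. Between day 3 and day 14 none of the 8 was called, while 13.4% of all genes were. Both counts against day 0 use the same day 0 samples and are not independent of each other.

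**Figure D1:**
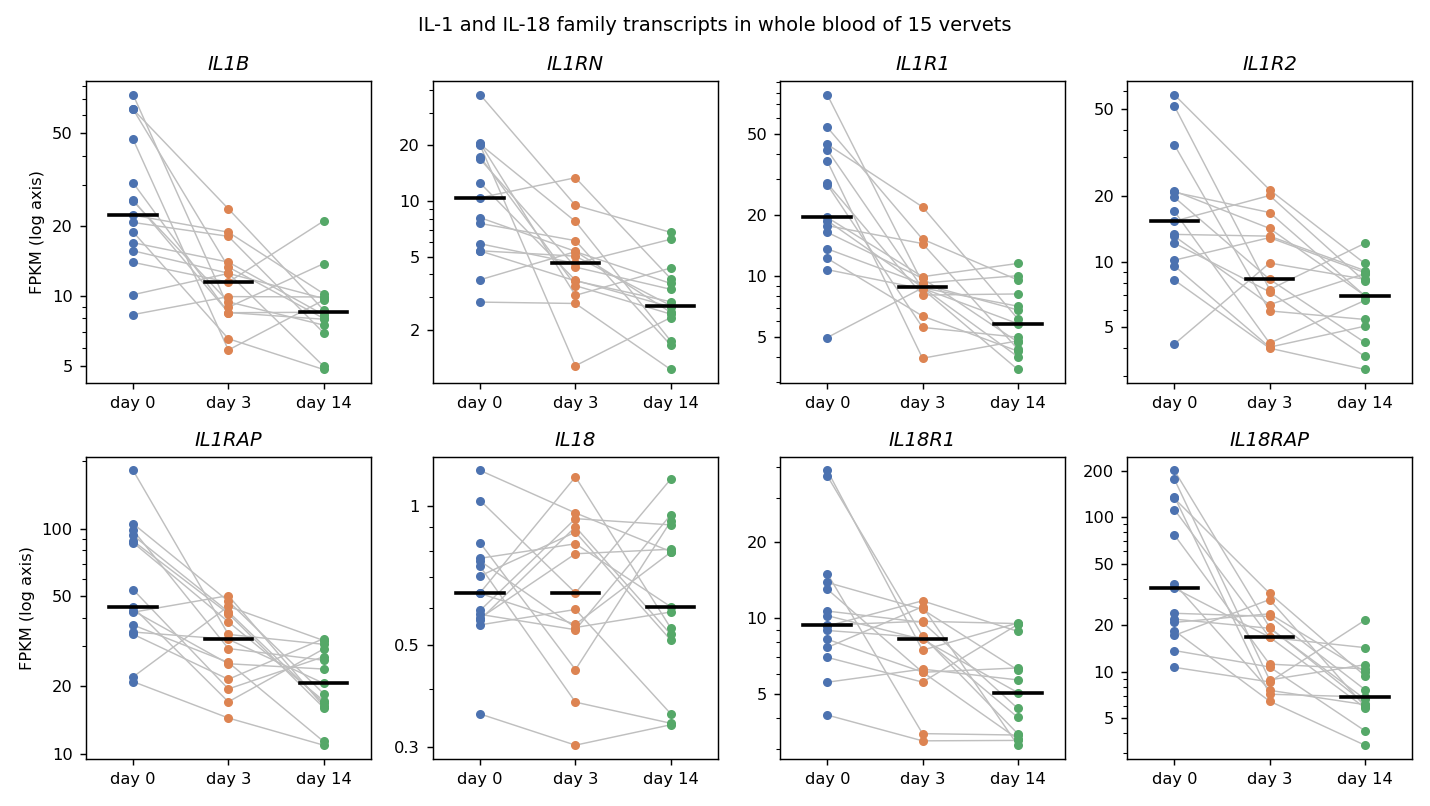
FPKM (log axis) of the 8 transcripts in each sample on days 0, 3 and 14. Points are samples, grey lines join the 3 samples of an animal, and black bars are medians of 15 animals. Day 0 points spread upward from the later days for every gene shown except IL18, and the day 0 points overlap the later ones in all 8 panels.

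On day 0 the order of the median levels was IL1RAP, IL18RAP, IL1B, IL1R1, IL1R2, IL1RN, IL18R1 and IL18, from 44.7 FPKM down to 0.648 FPKM. Neighbours in this order from IL1RAP to IL18R1 overlapped across animals and did not differ beyond their spread. IL18 alone stood apart: its highest sample of all 45, at 1.19 FPKM, lay below the lowest sample of every other gene of the family (1.22 FPKM, an IL1RN value). By day 14 the order was IL1RAP, IL1B, IL1R2, IL18RAP, IL1R1, IL18R1, IL1RN and IL18, with IL18RAP down from the second place to the fourth.

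IL1B, the gene for the ligand IL-1beta, ranged from 8.31 to 73.3 FPKM on day 0 with a median of 22.2 (n = 15 on each day). On day 3 it ranged from 5.86 to 23.7 with a median of 11.46, and from 4.83 to 21.0 with a median of 8.51 on day 14. The high samples were those of day 0, where 7 of 15 lay above every later sample as FPKM and 6 of 15 after scaling, and the days overlapped below them. The log2 fold change was -1.08 ± 0.29 (SE) on day 3, with adjusted p = 0.0115 in limma and a lower value in 13 of 15 animals. On day 14 it was -1.06 ± 0.29, with adjusted p = 0.00339 and a lower value in 12 of 15 animals. The difference between day 14 and day 3 was 0.02, with a 95% interval from -0.57 to 0.60.

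IL1RN, which encodes the receptor antagonist, ran at a lower level than its competitor. Its day 0 samples ranged from 2.83 to 37.7 FPKM with a median of 10.4, its day 3 samples from 1.28 to 13.4 with a median of 4.59, and its day 14 samples from 1.22 to 6.76 with a median of 2.71. On day 0, 6 of 15 samples lay above every later one, and on day 14, 8 of 15 lay below every day 0 sample as FPKM (6 of 15 after scaling). IL1RN fell by 1.09 ± 0.34 on the log2 scale on day 3 (adjusted p = 0.0297, limma) and by 1.36 ± 0.34 on day 14 (adjusted p = 0.00159), in 12 and 13 of 15 animals. The day 3 call was lost without any one of animals 2, 4, 7, 8, 11 or 13, with adjusted p up to 0.0994, and with the RNA integrity number (0.0635).

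In each of the 45 samples IL1B exceeded IL1RN. The median ratio of the pair on days 0, 3 and 14 was 2.22, 2.35 and 3.20, with ranges of 1.47 to 6.66, 1.35 to 6.99 and 1.18 to 5.90. From day 0 to day 14 the log2 ratio changed by 0.32 ± 0.52 (SD, n = 15) and was higher in 10 of 15 animals, a mean change smaller than its spread. From day 3 to day 14 it changed by 0.30 ± 0.31 and was higher in 13 of 15. Ratios within a sample do not depend on the scaling, and they are given with no test.

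IL1R1, the signalling receptor for IL-1, was lower in nearly every animal on both later days. Its level ranged from 4.99 to 78.1 FPKM with a median of 19.5 on day 0, from 3.95 to 21.9 with a median of 8.81 on day 3, and from 3.48 to 11.6 with a median of 5.85 on day 14. Again 7 of 15 day 0 samples exceeded all later samples, and the lowest day 0 sample, that of animal 5, lay within the later range. The log2 fold change was -1.26 ± 0.30 on day 3 (adjusted p = 0.00535, limma) and -1.48 ± 0.30 on day 14 (adjusted p = 1.63e-04), lower in 14 of 15 animals both times. Animal 5 was the animal that went the other way on both days, from 4.99 FPKM on day 0 to 8.76 on day 3 and 7.12 on day 14.

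IL1R2, the decoy receptor, fell less clearly. Its medians were 15.3 FPKM on day 0 (4.19 to 58.0), 8.29 on day 3 (4.01 to 21.3) and 6.98 on day 14 (3.21 to 12.1). Of the day 0 samples 3 of 15 lay above every later sample as FPKM and 4 of 15 after scaling, and the days overlapped widely. The change on day 3, -0.82 ± 0.32 on the log2 scale, missed the threshold (adjusted p = 0.0850, limma). It passed with the animal as a block (adjusted p = 0.0174), with the block and the RNA integrity number (0.0406), without TMM (0.0445) and without animal 5 (0.0314). The change on day 14, -0.85 ± 0.32, passed (adjusted p = 0.0321, 13 of 15 animals lower). The call was lost without any one of animals 2, 4, 7 or 11 (adjusted p up to 0.0659) and without the 5 libraries that stand apart (0.0593). It was also lost with the RNA integrity number (0.192), and with that and the animal block together (0.0655).

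The signalling receptor and its decoy can be set against each other within a sample. IL1R1 exceeded IL1R2 in 11 of 15 samples at day 0, in 7 of 15 at day 3 and in 3 of 15 at day 14, with median ratios of 1.31, 0.942 and 0.884. Whether a ratio lies above 1 also rests on the gene lengths used and on how reads of overlapping genes were counted. The log2 ratio changed by -0.64 ± 0.55 (SD) from day 0 to day 14 and was lower in 13 of 15 animals, and by -0.45 ± 0.70 from day 0 to day 3, lower in 10 of 15.

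IL1RAP, the accessory chain shared by the IL-1, IL-33 and IL-36 receptors, was the most abundant member per length. It ranged from 20.9 to 181 FPKM with a median of 44.7 on day 0, from 14.4 to 50.4 with a median of 32.2 on day 3, and from 10.9 to 32.5 with a median of 20.6 on day 14. The 7 highest of the 45 samples were all from day 0, and the rest of the day 0 samples lay within the range of the later days. It fell by 0.82 ± 0.26 on the log2 scale on day 3 (adjusted p = 0.0347, limma, 12 of 15 animals) and by 0.98 ± 0.26 on day 14 (adjusted p = 0.00336, 13 of 15 animals). The day 3 call was lost without any one of animals 2, 4, 7, 8, 11, 12, 13 or 15 (adjusted p up to 0.0739), without the 5 libraries (0.0802), without the filter on low values (0.0572) and with days 0 and 3 alone in the fit (0.0627). With the RNA integrity number both calls were lost (adjusted p = 0.112 on day 3 and 0.109 on day 14). The median ratio of IL1RAP to IL1R1 for days 0, 3 and 14 was 2.32, 3.48 and 3.30. By day 14 the log2 ratio changed by 0.52 ± 0.78 (SD), a mean change smaller than its spread, and was higher in 11 of 15 animals.

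**Figure D2:**
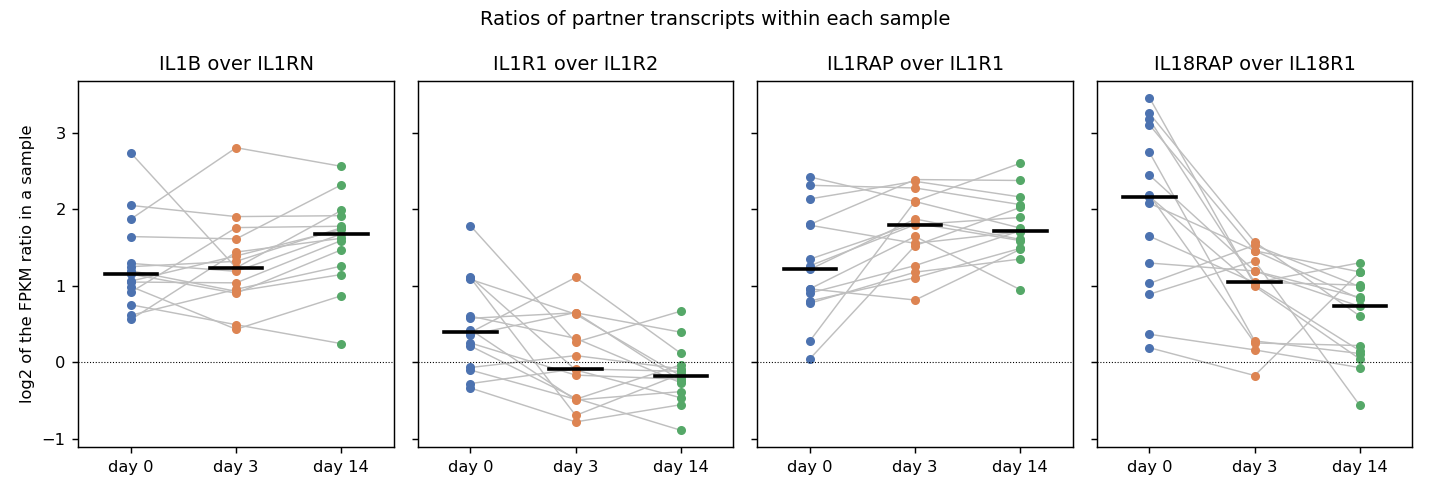
Log2 ratio of the FPKM of 2 partner transcripts within each sample, by day. Points are samples, grey lines join the samples of an animal, and black bars are medians. The ratio of IL18RAP to IL18R1 went from a median of 4.49 to 1.66 and that of IL1R1 to IL1R2 from 1.31 to 0.884, whereas IL1B over IL1RN stayed above 1 throughout.

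IL18, the second ligand of the family, was the least abundant of the 8 and showed no change past the threshold. It was covered by 11 to 80 fragments a library, and its medians were 0.648 FPKM on day 0 (0.353 to 1.19), 0.647 on day 3 (0.302 to 1.16) and 0.604 on day 14 (0.335 to 1.14). Samples of the 3 days covered the same range, and animal 7 was the lowest on each day. The log2 fold change was -0.01 on day 3, with a 95% interval from -0.31 to 0.30 (adjusted p = 0.988, limma), and 0.28 on day 14, with an interval from -0.02 to 0.58 (adjusted p = 0.143). The sign on day 14 depends on the scaling, since the change was -0.08 without TMM. The lower ends of these intervals lie well above the estimates for IL1B. The ratio of IL1B to IL18 had medians of 30.8, 15.5 and 14.7 over days 0, 3 and 14, lower on day 14 than on day 0 in 13 of 15 animals.

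IL18R1, the ligand-binding chain of the IL-18 receptor, had medians of 9.38 FPKM on day 0 (4.11 to 38.6), 8.21 on day 3 (3.25 to 11.7) and 5.05 on day 14 (3.12 to 9.55). A pair of day 0 samples, from animals 11 and 15, stood far above the rest at 38.6 and 36.7 FPKM. The log2 fold change was -0.53 ± 0.28 on day 3 (adjusted p = 0.221, limma) and -0.62 ± 0.28 on day 14 (adjusted p = 0.0756), lower in 9 and 12 of 15 animals. The day 14 change passed the threshold with the animal as a block (adjusted p = 0.0238), without TMM (-1.03, adjusted p = 5.68e-04), and without animal 3 (0.0487) or animal 10 (0.0428).

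IL18RAP, the signalling accessory chain of that receptor, showed the largest fall of the 8 genes on both days. Its day 0 samples ranged from 10.7 to 200.3 FPKM with a median of 34.8, its day 3 samples from 6.47 to 32.2 with a median of 16.7, and its day 14 samples from 3.36 to 21.6 with a median of 6.89. The day 0 samples were both the highest and the most spread, with an SD of 1.69 on the scaled log2 scale against 0.75 on day 3 and 0.71 on day 14. Of the 15 day 0 samples, 8 lay above every later one, and 12 of the 15 day 14 samples lay below every day 0 sample as FPKM (8 of 15 after scaling). The log2 fold change was -1.57 ± 0.41 on day 3 (adjusted p = 0.00934, limma, 11 of 15 animals lower) and -2.04 ± 0.41 on day 14 (adjusted p = 1.21e-04, 14 of 15 animals lower), a level 4.12 times lower on the scaled values. Ranked by fold change, IL18RAP was the 13th lowest of the 18753 genes on day 14 and the 16th lowest on day 3. Animal 1, with the lowest day 0 level of 10.7 FPKM, was the exception on day 14 with 21.6 FPKM.

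The 2 chains of the IL-18 receptor changed unequally. The ratio of IL18RAP to IL18R1 had medians of 4.49 at day 0 (1.14 to 11), 2.07 at day 3 (0.887 to 2.98) and 1.66 at day 14 (0.676 to 2.46). The log2 ratio changed by -1.05 ± 0.99 (SD) by day 3, lower in 13 of 15 animals, and by -1.43 ± 1.16 by day 14, lower in 14 of 15. Without the 5 libraries that stand apart, 11 animals have both days, and the day 14 changes were -1.37 ± 1.27 for this ratio, -0.76 ± 0.56 for IL1R1 over IL1R2, 0.68 ± 0.80 for IL1RAP over IL1R1 and 0.28 ± 0.57 for IL1B over IL1RN.

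**Figure D3:**
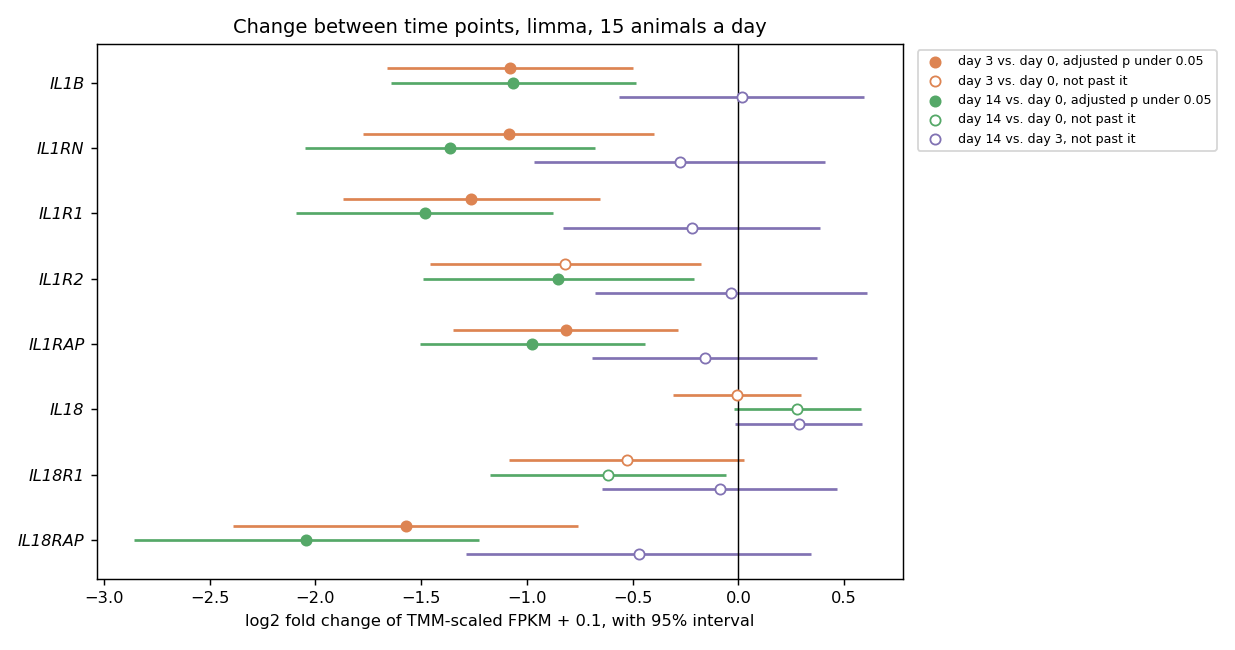
Log2 fold change of TMM-scaled FPKM + 0.1 with its 95% interval for each gene and comparison (limma, 15 animals a day). Filled points passed an adjusted p of 0.05 and open points did not. IL18RAP lies farthest to the left, IL18 sits at 0 or above, and all day 14 against day 3 intervals span 0.

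Between day 3 and day 14 the number called was 0 of 8 in limma (0 of 8 also at an unadjusted p of 0.05, and 0 under limma-voom on fragments). The largest difference was that of IL18RAP, -0.47, with a 95% interval from -1.29 to 0.34 and a lower value in 12 of 15 animals. Without TMM it was -0.85 (adjusted p = 0.0535), with IL1RN at -0.65 (0.0721) and IL1R1 at -0.60 (0.0639). The smallest adjusted p of the 8 was 0.190, for IL18, with a change of 0.28. For IL1RN, IL1R1 and IL1RAP the changes were -0.28, -0.22 and -0.16, and for IL1R2 and IL18R1 they were -0.03 and -0.09. Leaving IL18 aside, the lower ends of the 95% intervals lay between -1.29 and -0.57, so the data do not show that the levels had settled. The fit has 1 estimate of the spread over all 3 days, so these intervals also carry the spread of day 0, the widest for each of these genes. With days 3 and 14 alone in the fit none of the 8 was called either.

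The spread of the family on day 0 lay in the same animals. Animal 11 was among the 5 highest for 8 of 8 genes, animal 15 for 7, animal 8 for 6, and animals 2 and 7 for 5. At the other end, animals 5, 6 and 10 were among the 5 lowest for 6 genes each. Animal 11, whose day 0 library is one of the 5 that stand apart, fell from 73.3 to 8.94 FPKM for IL1B and from 175.9 to 8.88 FPKM for IL18RAP by day 3. Animal 15, whose libraries do not stand apart, fell from 63.4 to 13.3 FPKM and from 200.3 to 19.4 FPKM in the same interval. Without the 5 libraries 4 of 8 genes were called on day 3 and 5 of 8 on day 14, beside 9.46% and 38.6% of all genes, with the IL18RAP changes at -1.61 and -1.97.

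Animal 5 went against the group for most IL-1 genes. From day 0 to day 3 its IL1RAP went from 21.96 to 45.2 FPKM, its IL1R2 from 4.19 to 9.84 FPKM and its IL1RN from 3.74 to 5.31 FPKM. Its changes after scaling were the highest of the 15 animals for all 5 IL-1 genes on both days.

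**Figure D4:**
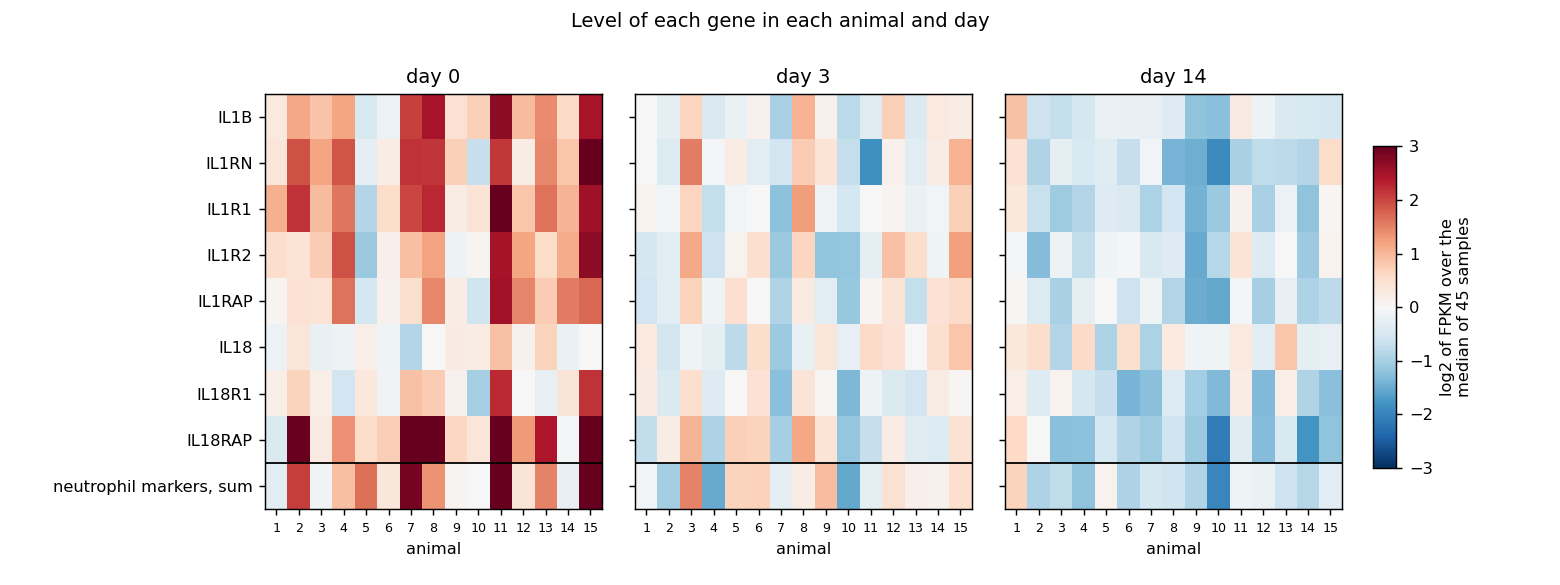
Each cell is the log2 of FPKM over the median of the 45 samples for a gene (row) in an animal (column), by day, with the colour scale capped at -3 and 3. The bottom row is the summed FPKM of 18 neutrophil marker genes. Animals 2, 7, 8, 11 and 15 carry most of the deep red of the family on day 0, animals 2, 7, 11 and 15 also have the highest marker sums, and animal 5 is pale or blue on day 0 for the IL-1 genes but red in the marker row.

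Across the 45 samples the log2 values of IL1B, IL1RN, IL1R1, IL1R2, IL1RAP, IL18R1 and IL18RAP moved together, with Pearson r for their pairs between 0.675 (IL18R1 and IL1R2) and 0.925 (IL1R1 and IL1B). With the means of each day removed the pairs kept r of 0.625 to 0.899. IL18 had r of 0.003 to 0.299 with the other genes, and 0.140 to 0.415 with the means of each day removed. These points share animals, days and the same mix of blood cells, and the values are descriptions. The genes whose values followed each member most closely among 10932 compared were ARG2 for IL1B (r = 0.934), NCF4 for IL1RN (0.914), RNF149 for IL1R2 (0.874), STEAP4 for IL1RAP (0.906), KLHL2 for IL18R1 (0.851) and FBXL5 for IL18RAP (0.945). For IL1R1 it was LOC103241151 (0.984), followed by CREB5 (0.955). For IL18 the highest r was 0.663, with GBAS.

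In the RefSeq annotation of the assembly mChlSab1.0, which is not the one the deposited values were made on, IL1R2, IL1R1, IL1RL2, IL1RL1, IL18R1 and IL18RAP lie in this order beside each other, with LOC103241148 between the first and second of them. IL1B lies between IL37 and IL1A, and IL1RN next to IL1F10. In that annotation a long noncoding RNA gene overlaps each of IL1B, IL1R1 and IL18, and how the counting divided reads between overlapping genes is not given in the sources used here. The neighbours IL18R1 and IL18RAP are thus a pair that changed by different amounts. The remaining receptor genes of the stretch, IL1RL1 and IL1RL2, were not called in any comparison. IL1RL1, the IL-33 receptor, had medians of 1.71, 2.72 and 1.76 FPKM on days 0, 3 and 14, and IL1RL2, the IL-36 receptor, was barely detected with medians of 0.102, 0.0574 and 0.0308 FPKM. Both were chosen for their place there after their values were seen.

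Because this is bulk blood, fewer cells of a type and less RNA per cell cannot be told apart. Of 20 neutrophil markers 18 were in the tables and none of them was at 0. FCGR3B and TLR2 were not analysed here. Their summed level ranged from 2414 to 37506 FPKM with a median of 5722 on day 0, from 1052 to 8604 with a median of 3420 on day 3, and from 786 to 4840 with a median of 1995 on day 14. Of the 18 markers 10 fell by day 3 and 16 by day 14, with median log2 changes of -1.06 and -1.35, beside 6.19% and 17.3% of all genes called lower. None was called between day 3 and day 14, when 13.4% of all genes were. The summed level was lower on day 3 than on day 0 in 9 of 15 animals and higher in 6. It was lower on day 14 than on day 0 in 14 of 15 animals, animal 1 being the exception as for IL18RAP. The part of these markers in the change of the family was not tested. Among the other blood cell lists, 2 of 11 monocyte markers fell by day 14, near the 17.3% of all genes called lower, and 3 of 11 were higher on day 3, when 6.01% of all genes were. By day 14, 10 of 12 NK and cytotoxic markers rose and 11 of 11 reticulocyte and erythroid markers rose, beside 18.8% of all genes, and their part was not tested either.

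Set against the summed neutrophil markers of the same sample, IL18RAP was lower and IL18 higher by day 14. The other genes of the family had mean changes smaller than their spread. The sum adds FPKM as they are, so the abundant markers weigh most in it. From day 0 to day 14 the log2 ratio to the marker sum changed by -0.69 ± 0.67 (SD) for IL18RAP and was lower in 12 of 15 animals. It changed by -0.03 ± 0.98 for IL1RN, -0.13 ± 1.11 for IL1R1, 0.29 ± 0.91 for IL1B, 0.50 ± 1.31 for IL1R2 and 0.39 ± 1.45 for IL1RAP, with 7 to 9 of 15 animals higher in each. For IL18R1 it changed by 0.74 ± 1.11 and for IL18 by 1.69 ± 1.38, higher in 10 and 14 of 15 animals. Relative to the marker sum, IL18RAP was thus lower in more animals than any other gene of the family, and IL18 was lower in the fewest, 1 of 15. In the 11 animals left without the 5 libraries the changes were -0.63 ± 0.66 for IL18RAP (8 of 11 lower) and 1.68 ± 1.40 for IL18 (10 of 11 higher).

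**Figure D5:**
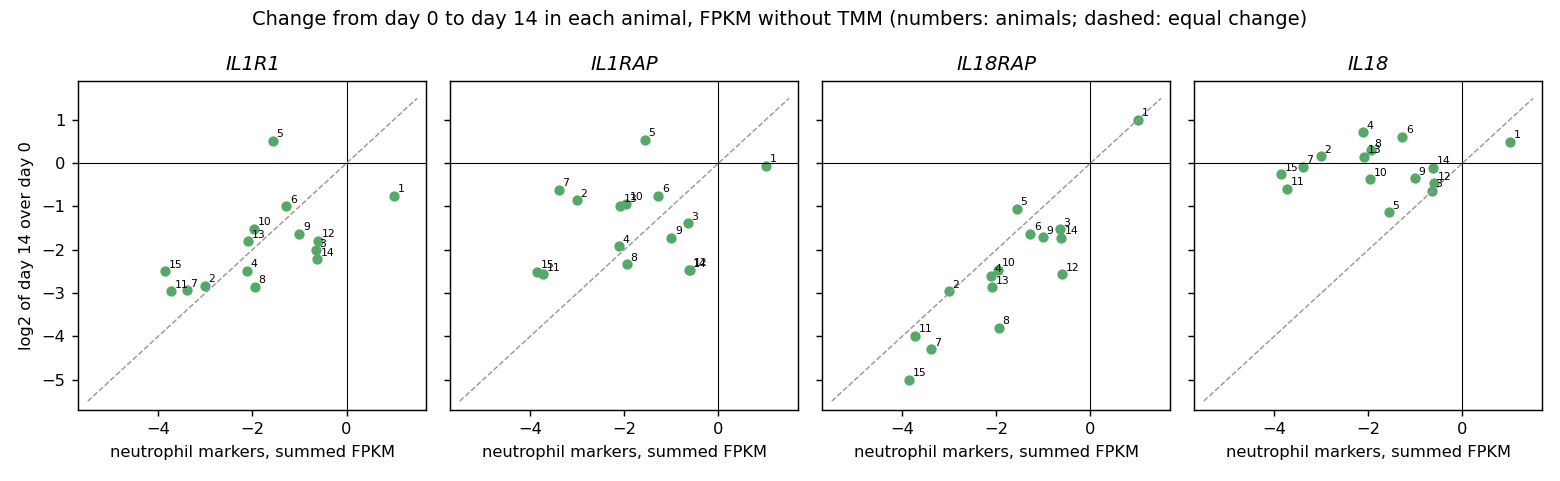
Log2 of day 14 over day 0 FPKM in each animal (numbered points) for IL1R1, IL1RAP, IL18RAP and IL18, against the same change of the summed neutrophil markers, both without TMM. On the dashed line both changed equally. IL18RAP lies below the line in 12 of 15 animals, IL18 above it in 14, and IL1R1 and IL1RAP on either side.

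The genes around the family were described by 4 lists of 84 genes, of which 74 were in the tables and 66 were tested. By day 3, 18 of the 66 were called (3 higher, 15 lower) and by day 14, 34 (6 higher, 28 lower), that is, 27.3% and 51.5% of the list, beside 12.2% and 36% of all genes. Without the 5 libraries the counts were 16 and 33, beside 9.46% and 38.6% of all genes. The day 3 count was 11 without animal 2, 7 or 11, where 7.31%, 9.07% and 8.54% of all genes were called. The day 14 count was 19 with the RNA integrity number, where 19.9% of all genes were called. Without TMM the day 14 split was 3 higher and 48 lower, beside 1460 higher and 7830 lower over all genes. Between days 3 and 14, 9 were called (2 higher, 7 lower), or 13.6% of the list beside 13.4% of all genes. The count was 14 with the animal as a block, where 23.7% of all genes were called, 2 with the RNA integrity number (6.05% of all genes), 2 to 5 without animal 2, 3, 8, 9 or 12 (4.30% to 8.09%), and 6 without the 5 libraries that stand apart (12.3%). Without TMM 37 were called, all lower, beside 606 higher and 6600 lower over all genes.

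Of the other ligands, antagonists and receptors, 13 of 14 were in the tables but only 7 passed the filter on low values. None of the 7 was called on day 3 and 1 on day 14, or 14.3% beside 36% of all genes. This was IL36A, higher on day 14 (0.87 ± 0.28 on the log2 scale, adjusted p = 0.0138, limma), but from a median of 0.117 FPKM, or 6 fragments, to 0.181 FPKM, or 10, and without TMM the call was lost (0.57, adjusted p = 0.0729). It was called against day 3 too (0.84, adjusted p = 0.0415), and that call was also lost without TMM (0.63, adjusted p = 0.0584). IL18BP, the soluble inhibitor of IL-18, had medians of 1.97, 2.03 and 1.09 FPKM, with a log2 change on day 14 of -0.31 against day 0 (adjusted p = 0.160) and -0.52 against day 3 (adjusted p = 0.0420). SIGIRR, an inhibitory receptor of the family, had medians of 19.3, 19.8 and 11.8 FPKM and a log2 change of -0.15 (adjusted p = 0.403). IL18BP and SIGIRR were named after their values were seen.

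The next list held 23 genes around the maturation and release of IL-1beta and IL-18, of which 19 were in the tables. Among them are inflammasome sensors and regulators, caspases and proteases, but not every gene of the list takes part in the cutting itself. Of its 19 genes tested, 8 fell by day 3 and 12 by day 14, where 6.19% and 17.3% of all genes were called lower, and none rose on either day. The inflammasome sensors and regulators NLRP6, NLRP12, MEFV (pyrin) and NLRP1 had the lowest adjusted p on day 14 against day 0. NLRP12 went from a median of 105.5 FPKM on day 0 to 52.1 on day 3 and 35.7 on day 14, with a log2 change on day 14 of -1.27 ± 0.33 (adjusted p = 0.00212, limma) and a lower value in 13 of 15 animals. MEFV went from 37.6 to 20.2 and 11.8 FPKM, NLRP6 from 4.90 to 1.95 and 1.42 FPKM, and NLRP1 from 12.98 to 11.05 and 4.80 FPKM, with log2 changes on day 14 of -1.20, -1.41 and -1.02. CASP1, the caspase that cuts both precursors, fell by 0.47 ± 0.18 on day 14 (adjusted p = 0.0324) from a median of 53.2 to 28.0 FPKM, and was named for its role after its values were seen.

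Downstream of the receptors, 30 genes were tested, of which 6 were called on day 3 (2 higher, 4 lower) and 15 on day 14 (2 higher, 13 lower), or 20% and 50% beside 12.2% and 36% of all genes. NFKBIZ, a nuclear partner of NF-kappaB that IL-1 signalling induces, went from a median of 24.1 FPKM to 16.6 and 12.2, with a log2 change on day 14 of -0.66 ± 0.12 (adjusted p = 4.18e-05, limma, 14 of 15 animals lower). The kinase MAPK14 (p38 alpha) fell by 0.96 ± 0.18 on day 14, from a median of 80.3 to 33.3 FPKM. PELI2, a ubiquitin ligase that acts on IRAK kinases, fell by 0.86 and the NF-kappaB subunit RELA by 0.58. MAP2K3, a kinase that activates p38, went the other way, from 15.97 to 31.1 and 30.8 FPKM, with a log2 change of 1.45 ± 0.27 (adjusted p = 6.45e-05, 13 of 15 animals higher), and TAB3, an adaptor of the TAK1 kinase, rose by 0.50 (adjusted p = 0.0319), a call that was lost without TMM (0.09, adjusted p = 0.592).

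Of 16 listed genes known to respond to IL-1 or IL-18, 12 were in the tables and 10 were tested. By day 3, 1 rose and 3 fell, when 6.01% of all genes were called higher and 6.19% lower. By day 14, 3 rose and 3 fell, when 18.8% of all genes were called higher and 17.3% lower. PTGS2, the inducible cyclooxygenase, went from a median of 33.7 FPKM on day 0 (6.93 to 142) to 8.23 on day 3 and 8.03 on day 14, a log2 change of -2.15 ± 0.40 on day 3 (adjusted p = 8.14e-04, limma) and -1.73 ± 0.40 on day 14 (adjusted p = 6.14e-04), lower in 14 of 15 animals both times. The neutrophil chemokine CXCL8 went from 42.5 to 16.2 and 16.8 FPKM (-1.24 ± 0.35 on day 14, adjusted p = 0.00505). CXCL1, at 12 fragments a library in the median on day 14, fell by 0.90 (adjusted p = 0.0277). ICAM1, an adhesion molecule that IL-1 induces on endothelium, went from 3.62 to 6.70 and 6.92 FPKM, a rise of 1.51 ± 0.19 on day 14 (adjusted p = 5.22e-07) that was seen in 15 of 15 animals. IFNG, the gene that IL-18 is known to induce, rose by 1.16 ± 0.25 on day 14 (adjusted p = 2.62e-04, 14 of 15 animals higher) at 19 fragments in the median on day 0 and 35 on day 14, and the rise passed without TMM too (0.80, adjusted p = 0.0122). CCL3 rose by 0.91 (adjusted p = 0.0280) with medians of 1.13, 1.68 and 1.25 FPKM, and this call too was lost without TMM (0.53, adjusted p = 0.199).

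With the RNA integrity number of each sample as a covariate, 3 of 8 family genes were called on day 3 and 3 on day 14, when 7.66% and 19.9% of all genes were. In the study's supplement this number was higher on day 14 than on day 0 in most animals. It therefore runs partly with the day and cannot be fully told apart from it. IL18RAP and IL1R1 passed on both days, with log2 changes on day 14 of -1.82 and -1.30 (adjusted p = 0.00521 and 0.00733, limma). On day 3 the calls of IL1RN (-1.04, adjusted p = 0.0635) and IL1RAP (-0.67, 0.112) were lost, and on day 14 IL1B (-0.90, adjusted p = 0.0555), IL1R2 (-0.71, 0.192) and IL1RAP (-0.68, 0.109) no longer did. With the animal as a block beside the RNA integrity number, 6 of 8 were called on day 3 and 5 on day 14, beside 14.8% and 21.7% of all genes. In that fit IL1RN (adjusted p = 0.0139) and IL1RAP (0.0286) passed on day 3, and IL1B (0.0154) and IL1RAP (0.0339) on day 14, whereas IL1R2 on day 14 did not (0.0655).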

How the data were processed

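Total RNA of PAXgene whole blood from 15 animals at 3 time points was depleted of ribosomal and globin RNA and sequenced as read pairs on an Illumina HiSeq. The submitters' processing notes name bcl2fastq 2.17, STAR and HTSeq, and the authors aligned to the vervet genome and deposited FPKM for 33994 gene rows per sample; whether counting used strand is not given in the sources used here. The FPKM steps gave whole fragments for 100% of values above 0 (tolerance 0.01), so depth was known. The filter kept a gene whose CPM passed 0.5 in 3 samples or more. Deposited FPKM were scaled by TMM, and log2(FPKM + 0.1) was fitted with limma 3.58.1 in R 4.3.3, 1 mean per day over all 45 samples, Benjamini-Hochberg adjusted over 18753 genes. The code was tested on simulated data. A symbol found in more than 1 row is no gene named here.

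The members, the gene lists and the comparisons were chosen with earlier results of these data known. Named genes were the 8 members, from each list the called genes with the lowest adjusted p on day 14 against day 0 (at most 4 in each direction), and the genes with the highest Pearson r to each member. The animal number in the labels pairs the samples: deviations of samples of the same animal had a mean r of 0.328 (41 of 45 pairs above 0.1), against -0.0231 between animals, and the study's methods state no animal term, so the block is an alternative. Other alternatives were no TMM, pseudocounts of 1 and 0.01, 2 other filters, the RNA integrity number from the study's supplement, 2 days in the fit, limma-voom on fragments, leaving out each animal and, chosen after seeing the data, leaving out 5 libraries. FPKM changes are relative to the total, so a rise of abundant transcripts lowers the others.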

Additional observations from a re-analysis of the deposited data

How the results depend on the processing

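The family genes called numbered 5 on day 3, 6 on day 14 and 0 between days 14 and 3. With the RNA integrity number they were 3, 3 and 0, with the animal as a block 6, 7 and 0, and with both 6, 5 and 0. Of all genes 12.2% and 36% were called on days 3 and 14 as reported, 7.66% and 19.9% with the RNA integrity number, 19.2% and 44% with the block, and 14.8% and 21.7% with both. The block added IL1R2 on day 3 and IL18R1 on day 14 and changed no other call of the 8 genes. Leaving out 1 animal at a time gave 3 to 6 on day 3 and 5 to 7 on day 14, beside 7.31% to 12.6% and 31.7% to 37.9% of all genes. The 5 libraries, left out after seeing the data, gave 4 and 5 (9.46% and 38.6% of all genes). Of the listed pathway genes, leaving out 1 animal gave 11 to 19 on day 3 (reported 18), beside 7.31% to 12.6% of all genes. The 11 came without animal 2, 7 or 11 (7.31%, 9.07% and 8.54% of all genes). Between days 14 and 3, leaving out 1 animal gave 2 to 12 (reported 9), beside 4.30% to 16.6% of all genes. The fewest there, 2, came without animal 8, and 4 or 5 without animal 2, 3, 9 or 12. The count between days 14 and 3 was 14 under the block, 37 without TMM and 2 with the RNA integrity number (23.7%, 38.4% and 6.05% of all genes). The RNA integrity number also gave 19 on day 14 (reported 34), beside 19.9% of all genes. IL1B, IL1R1 and IL18RAP kept their calls against day 0 whichever animal was left out. The cause of these shifts was not tested.

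Signs turned only for small changes that no setting called. For IL18 on day 3 the change was 0.024 under limma-voom, 0.075 without the 5 libraries and -0.077 to 0.055 by animal left out, and without TMM it was -0.082 on day 14 against day 0 and -0.045 against day 3. For day 14 against day 3, IL1B changed by -0.36 without TMM, -0.014 without a filter, -0.0075 under limma-voom, -0.023 with block and RNA integrity number together, and -0.069 to 0.065 by animal. IL1R2 changed by 0.041 with the RNA integrity number, 0.038 without the 5 libraries and -0.094 to 0.022 by animal, and IL18R1 by 0.023 with the RNA integrity number and -0.16 to 0.0067 by animal. IL18 rests on the fewest fragments, 11 to 80 a library.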

Other observations

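The 12 NK and cytotoxic markers had a median log2 change of 1.14 on day 14 against day 0, and their summed level was higher in 14 of 15 animals (medians 331 and 649 FPKM). The 11 reticulocyte and erythroid markers had a median change of 2.59, with summed medians of 7169 FPKM on day 0, 17207 on day 3 and 31857 on day 14. Of the platelet markers, 9 of 9 rose by day 3 with a median of 1.52 (6.01% of all genes did), and 3 of 9 were called on day 14 against day 0, where 36% of all genes were. Between days 3 and 14 the platelet median was -0.95, with 3 of 9 called lower. In that comparison 939 of 18753 genes were called lower, and 13.4% of all genes were called in either direction. The 8 basophil and eosinophil markers had medians of 0.47 and 0.42 on days 3 and 14 against day 0. Between days 3 and 14, 4 of 9 B cell markers were called lower (median -0.65) and 2 of 11 T cell markers higher (median 0.04), when 13.4% of all genes were called.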
